A study of Homo sapiens and Mus musculus with 25 samples.

Results

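The H3K4me1 peak list that the authors corrected for off-target capture was compared with the uncorrected list of the antibody it started from, Abcam ab8895. Both lists describe K562, an established human cell line from a chronic myeloid leukaemia with erythroid features. They were made by internally calibrated ChIP-seq, in which nucleosomes carrying a known modification and a barcode are added to the chromatin as standards. All members of both lists on chromosomes 1 to 22 and X were taken, which gave 290042 corrected peaks and 349557 ab8895 peaks, out of 5119264 peaks in the 21 lists used. The correction was computed from 4 libraries, those of ab8895 (raised against H3K4me1), ab7766 (H3K4me2), ab12209 and ab8580 (both H3K4me3), per the deposited notes. Active Motif 39635, Cell Signaling Technologies 5326 BF, EpiGentek A-4031-050 and Thermo Fisher 710795, the other 4 H3K4me1 antibodies, were not among them and served as a check. All 5 H3K4me1 libraries come from K562 cells, for which the labels name no treatment, took 8 amplification cycles and were run beside the same input, AR16. Among the other targets, EMD Millipore 05-1338 (H3K4me2) and Abclonal A2357, Thermo Fisher PA5-40086 and ab12209 (all H3K4me3) took 12 cycles. Diagenode C15410003 and EpiGentek A-4033-050 (both H3K4me3) belong to another input, AR17. In the tests below, target is therefore partly confounded with cycles and input. The labels name no separate cultures, and the corrected list has no replicate, so values that compare the 2 lists have no error, and tests below measure the spread between antibodies only.

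Lysine 4 of histone H3 carries up to 3 methyl groups. In background terms, H3K4me1 is placed mainly by the KMT2C and KMT2D complexes and marks enhancers and the shoulders of promoters. H3K4me3 is placed mainly by the SETD1 and KMT2A/B complexes at the starts of active genes, many of them rich in CpG dinucleotides. An antibody against 1 degree can also bind the others, and around a transcription start site (TSS) the 3 degrees lie next to each other. The files give 1 value per peak in a column with no header, called here the authors' value and read as a calibrated modification level. A base under both lists is called kept, one under ab8895 only is called dropped, and one under the corrected list only is called added.

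The correction removed 118.8 Mb, which was 10.9% of the 1089 Mb under ab8895, and added 43.1 Mb, which was 4.25% of the 1014 Mb under the corrected list. Kept bases amounted to 971 Mb, and the Jaccard index of the lists (bases shared divided by bases in either) was 0.857. Of the ab8895 peaks, 20.3% (70850) had no corrected peak at all, 53.3% kept every base and 26.4% kept a part. Losses were mostly of whole peaks: isolated segments with no kept base beside them held 79.4% of the dropped bases. Additions were mostly extensions and fillings: isolated segments held 31.5% of the added bases, segments at the edge of a kept stretch held 46.5% and segments that bridged 2 kept stretches held 22.1%. Many edge shifts were small, with a median of 14 bases for dropped and 16 bases for added edges.

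The promoter stretches below show the kinds of place the lists disagreed on. Each is the 250 bases upstream of the start in the RefSeq promoter table (GRCh38.p14), printed 5′ to 3′ on the gene's strand, with CpG dinucleotides in capitals and other bases in lower case. EPOR (the erythropoietin receptor, chr19:11384315-11384564, minus strand) and PSMB2 (a proteasome subunit, chr1:35641527-35641776, minus strand) were under ab8895 over all 250 bases and under the corrected list over 0. IRF2BPL (chr14:77028709-77028958, minus strand) had 69 bases under ab8895 and 0 under the corrected list. KDM1A (an H3K4 demethylase, chr1:23019218-23019467, plus strand) went from 225 bases under ab8895 to 250. LCN12 (a lipocalin, chr9:136952023-136952272, plus strand) and CBR1 (a carbonyl reductase, chr21:36069774-36070023, plus strand) were under both lists over all 250 bases, but with a lower and a higher value after the correction. EPOR, PSMB2 and KDM1A were chosen after their values were seen, the other 3 by the rule for named genes.
EPOR: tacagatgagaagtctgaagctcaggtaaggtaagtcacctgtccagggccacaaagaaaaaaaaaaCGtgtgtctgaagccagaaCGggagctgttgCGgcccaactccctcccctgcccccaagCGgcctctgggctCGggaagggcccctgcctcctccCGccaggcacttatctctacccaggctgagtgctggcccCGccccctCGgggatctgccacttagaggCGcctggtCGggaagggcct
PSMB2: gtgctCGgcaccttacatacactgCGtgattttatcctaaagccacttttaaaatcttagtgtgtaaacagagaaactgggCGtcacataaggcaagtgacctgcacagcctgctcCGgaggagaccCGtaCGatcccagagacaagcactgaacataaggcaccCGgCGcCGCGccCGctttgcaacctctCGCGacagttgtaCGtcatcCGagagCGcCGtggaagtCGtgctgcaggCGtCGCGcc
IRF2BPL: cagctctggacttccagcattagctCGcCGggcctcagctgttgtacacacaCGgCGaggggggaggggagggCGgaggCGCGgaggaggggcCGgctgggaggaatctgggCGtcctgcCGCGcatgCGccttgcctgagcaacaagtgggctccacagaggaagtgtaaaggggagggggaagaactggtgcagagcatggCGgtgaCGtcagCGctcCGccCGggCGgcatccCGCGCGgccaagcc
KDM1A: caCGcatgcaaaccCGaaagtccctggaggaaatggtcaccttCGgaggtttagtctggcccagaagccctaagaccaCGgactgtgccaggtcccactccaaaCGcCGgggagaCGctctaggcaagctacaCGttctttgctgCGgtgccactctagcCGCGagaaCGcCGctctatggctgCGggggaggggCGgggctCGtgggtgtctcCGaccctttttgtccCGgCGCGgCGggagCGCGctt
LCN12: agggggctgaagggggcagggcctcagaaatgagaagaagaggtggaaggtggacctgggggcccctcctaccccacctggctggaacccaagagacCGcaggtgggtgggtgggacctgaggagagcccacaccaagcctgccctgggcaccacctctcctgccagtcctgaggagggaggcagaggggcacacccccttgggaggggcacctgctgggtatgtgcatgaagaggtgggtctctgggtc
CBR1: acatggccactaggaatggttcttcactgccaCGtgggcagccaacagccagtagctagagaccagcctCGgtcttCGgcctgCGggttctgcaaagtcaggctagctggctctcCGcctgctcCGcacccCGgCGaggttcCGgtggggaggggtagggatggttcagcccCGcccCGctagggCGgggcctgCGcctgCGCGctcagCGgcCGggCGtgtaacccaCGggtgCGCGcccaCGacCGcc
The stretches hold 10, 21, 21, 23, 1 and 23 CpG dinucleotides in that order. LCN12, the 1 that is poor in CpG, had a peak in 0 of the 6 H3K4me3 lists used for the check, and EPOR, PSMB2, IRF2BPL, KDM1A and CBR1 were touched by 4, 6, 1, 6 and 4 of them.

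Dropped bases lay at both ends of the distance scale. Within 0.5 kb of the TSS of a protein-coding gene, 15.6% of ab8895 bases were dropped. The share was lowest at 5 to 10 kb, with 7.33%, and rose again to 16.3% at over 100 kb. Added bases made up 6.95% of the corrected list within 0.5 kb, 2.22% at 1 to 2 kb and 6.56% at over 100 kb, so they were also most frequent at both ends. In bases the far end dominated: 38.7% of dropped bases and 38.4% of added bases lay over 100 kb from a TSS, against 24.3% of kept bases and 49.1% of the chromosomes. The bases within 1 kb held 2.42% of the dropped, 2.17% of the added and 1.98% of the kept bases.

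**Figure D1:**
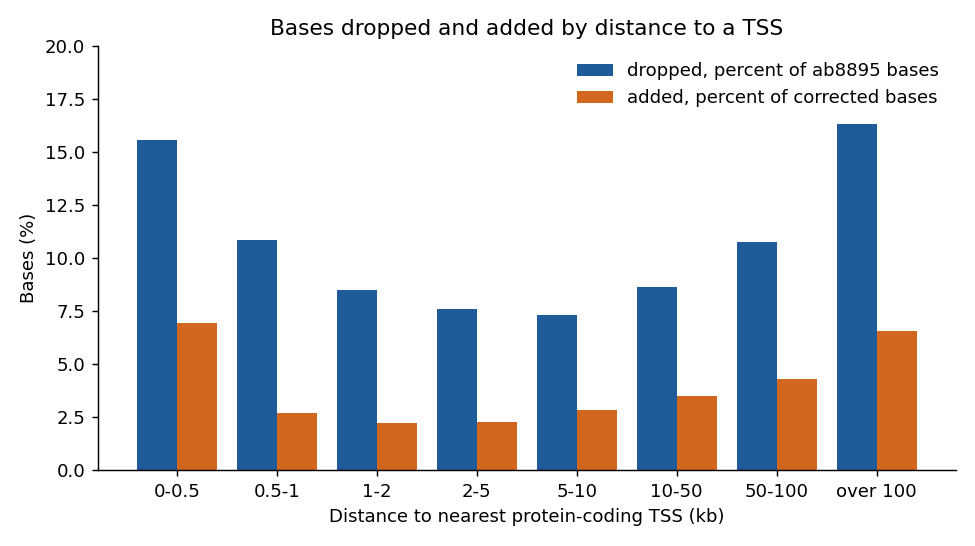
Percent of ab8895 bases dropped (blue) and percent of corrected bases added (orange) in 8 bins of distance to the nearest protein-coding TSS, in kb. Dropping is highest within 0.5 kb (15.6%) and at over 100 kb (16.3%) and lowest at 5 to 10 kb (7.33%).

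By gene annotation, 8.05% of the ab8895 bases in exons of protein-coding genes were dropped, 9.43% of those in introns and 13.2% of those between genes. Between genes, 23.6% of bases were under the corrected list and 25.8% under ab8895. Within genes, the median gene with an ab8895 base in its body lost 1.34% of those bases, over 17445 genes.

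Narrow peaks were lost most often, and so were low peaks when width was not taken into account. Of ab8895 peaks under 500 bases wide, 29.5% had no corrected peak, and of those of 10000 bases and over, 3.98%. The lost peaks had a median width of 590 bases, against 1178 bases for the peaks kept in whole or part. By the authors' value, 24.4% of peaks under 8 were lost and 8.45% of those at 30 and over. Median widths were 505 bases for peaks under 8 and 11515 bases for those at 30 and over. At similar widths below 5000 bases, lost and kept peaks differed little in median value. It was 9.27 for lost and 9.28 for kept peaks under 500 bases, and 11.09 and 11.08 from 2000 to under 5000 bases. From 5000 to under 10000 bases lost peaks were higher, at 15.3 against 13.9. The part of width in the fall with value was not tested. The 24556 corrected peaks with no ab8895 peak were narrower still, with a median of 326 bases, and had a median value of 9.17, against 10.4 for all corrected peaks.

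**Figure D2:**
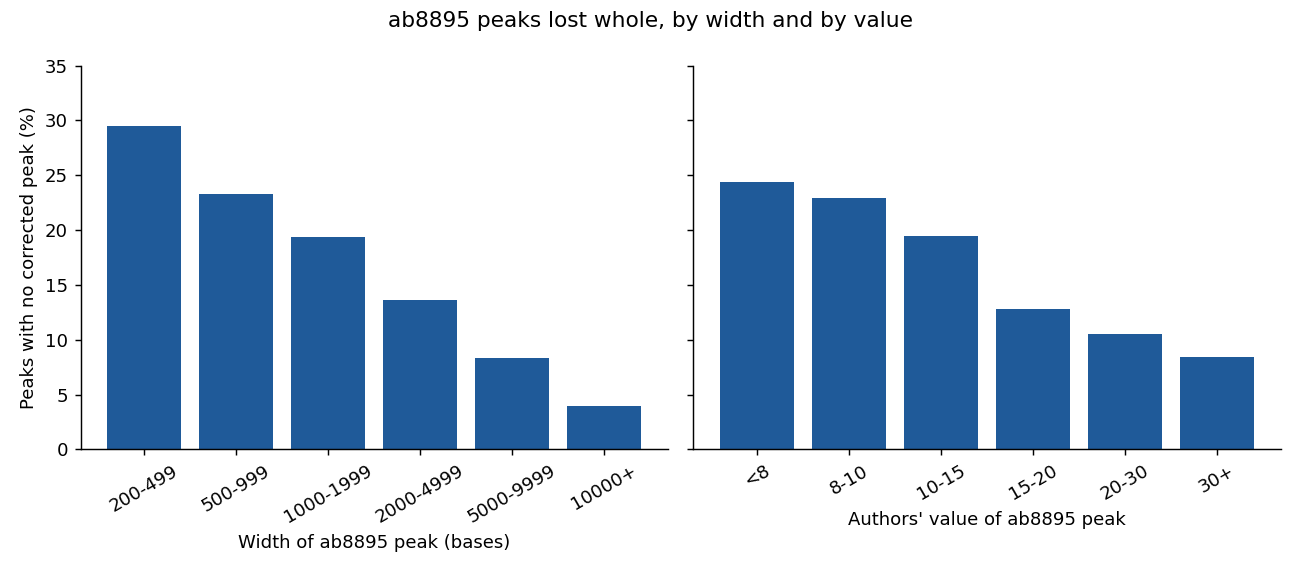
Percent of ab8895 peaks with no corrected peak, by width in bases (left) and by the authors' value (right). The share falls from 29.5% of the narrowest to 3.98% of the widest peaks.

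A smaller group of lost peaks was wide and high. It comprised 961 lost peaks of 10000 bases and over, with a median value of 20.9, against 18.8 for the 23195 kept peaks of 10000 bases to 1 Mb. Cell Signaling Technologies 5326 BF covered 79.9% of the bases of these lost peaks, EpiGentek A-4031-050 80.2% and Thermo Fisher 710795 66.9%. At kept peaks of the same width these 3 covered 93.4%, 89.2% and 78.7%. Active Motif 39635 differed from them, covering 15.0% of the wide lost peaks and 91.5% of the wide kept peaks. The H3K27me3 list, which covers 2029 Mb, took in 36.2% of the bases of the wide lost peaks and 88.4% of those of the wide kept peaks. Of the 961, 297 lay on chromosomes 13, 14 and X, and without those chromosomes Active Motif 39635 covered 21.5% of the lost and 93.9% of the kept bases. The longest single loss was a peak of 59007 bases with a value of 18.4 at chr12:8698486-8757492, over RIMKLB. Next came one of 54305 bases with a value of 35.4 at chr3:71366016-71420320, in the transcription factor gene FOXP1, and one of 50971 bases with a value of 26.2 at chr3:119987688-120038658, over the kinase gene GSK3B. At the FOXP1 peak the same 3 lists covered 84.1%, 75.3% and 77.2% of the bases, and Active Motif 39635 covered 0%. The longest additions were shorter: 20758 bases at chr3:58181003-58201760 by DNASE1L3, 18620 bases at chr3:49428948-49447567 by NICN1 and 17447 bases at chr17:17042851-17060297 in MPRIP. Active Motif 39635 and the H3K27me3 list covered 0% of each of these additions, as they did of each of the losses named above. The gap in these lists was thus not particular to the longest losses.

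Chromosomes 13, 14 and X lost a larger part of their peaks than the others. There 34.5% of ab8895 bases were dropped (31.6%, 33.2% and 39.2% on the 3 chromosomes), against 10.2% on all others together. Few bases were at stake, since ab8895 covered 8.78% of these chromosomes and 39.8% of the others. Cell Signaling Technologies 5326 BF, EpiGentek A-4031-050 and Thermo Fisher 710795 held most of the dropped bases there, at 73.2%, 76.0% and 64.3%. Active Motif 39635 held 3.04% of them, and it covered 2.00% of these chromosomes against 59.8% of the others. What sets the low cover of these chromosomes was not tested.

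The other H3K4me1 antibodies held dropped bases less often than kept bases. Cell Signaling Technologies 5326 BF covered 84.8% of kept and 60.3% of dropped bases, and EpiGentek A-4031-050 75.3% and 52.5%. Thermo Fisher 710795 covered 61.3% of kept and 35.8% of dropped bases, and Active Motif 39635 92.2% and 67.4%. So all 4 were lower on dropped bases, by 24.4 ± 1.18 percentage points (SD, n = 4 antibodies) in the mean. Yet dropped bases were far from empty in these lists: the same 4 antibodies covered 11.5%, 8.99%, 4.18% and 30.6% of the bases under neither list. Added bases were covered less than dropped ones by 3 of the 4, at 48.3%, 31.8% and 14.4% in the same order, while Active Motif 39635 covered 87.6% of them.

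Set against other targets, the loss of cover from kept to dropped bases was larger for the 4 H3K4me1 lists than for the 6 H3K4me3 lists outside the correction. The H3K4me3 mean was -1.002 ± 2.34 points (SD, n = 6), and the difference between targets was -23.4 points (adjusted p = 0.0381, exact two-sided permutation test over antibodies with Benjamini-Hochberg adjustment over 8 tests). For added bases the difference was -30.8 points (adjusted p = 0.0381, exact permutation test). These differences are in points, and the H3K4me3 lists covered only 1.44% to 13.2% of kept bases, which bounds how far they could fall. On the log2 ratio of the percentages the differences were -0.40 (adjusted p = 0.457, exact permutation test) and -0.24 (adjusted p = 0.762, exact permutation test), so neither held on that scale. Both calls in points also ended when 1 antibody was left out (adjusted p up to 0.0952, exact permutation test), except for Active Motif 39635, EMD Millipore 07-473 and the H3K4me2 antibodies. Against the 3 H3K4me2 lists outside the correction, the differences of -12.7 points for dropped and -13.0 points for added bases did not pass (adjusted p = 0.0762 and 0.4, exact permutation tests), and with 4 against 3 antibodies no p under 0.0571 was possible.

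Over 5 kb from any TSS the picture was the same in points. From kept to dropped bases the mean change was -24.1 ± 1.05 points for the H3K4me1 lists (SD, n = 4), -11.7 ± 9.42 points for the H3K4me2 lists (n = 3) and -1.16 ± 2.19 points for the H3K4me3 lists (n = 6). The difference from H3K4me3 was -22.9 points (adjusted p = 0.0381, exact permutation test), and it was 0.082 on the log2 ratio scale (adjusted p = 0.784, exact permutation test). For added bases it was -30.3 points (adjusted p = 0.0381, exact permutation test) and 1.495 on the log2 ratio scale (adjusted p = 0.229, exact permutation test), a change of direction. Leaving out 1 antibody ended both calls in points here too, with the same exceptions as over all bases.

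Within 1 kb of a TSS the targets moved in opposite directions. All 4 H3K4me1 lists covered dropped bases less than kept bases, by 25.3 ± 7.99 points in the mean (SD, n = 4), and all 6 H3K4me3 lists covered dropped bases more, by 11.2 ± 4.97 points (SD, n = 6). Thermo Fisher PA5-40086 covered 40.0% of kept and 58.4% of dropped bases near a TSS, Abclonal A2357 49.5% and 65.1%, and EMD Millipore 05-745R 51.6% and 63.6%. EMD Millipore 07-473 covered 65.0% and 71.4%, Diagenode C15410003 35.8% and 43.5%, and EpiGentek A-4033-050 29.3% and 36.4%. The H3K4me1 and H3K4me3 lists did not overlap in this change, and their difference was -36.5 points (adjusted p = 0.0190, exact permutation test over 4 tests on near bases that were chosen after the data had been seen). It held on the log2 ratio scale, at -0.85 (adjusted p = 0.0190, exact permutation test), and without any 1 antibody. With the libraries of 8 cycles only, or of the AR16 input only, adjusted p was 0.0571 (exact permutation test), and 4 against 4 antibodies allow no p under 0.0286. Near a TSS, then, dropped bases were more often under H3K4me3 and less often under H3K4me1 than kept bases, in libraries the correction did not use. The classes also lay at different distances within this 1 kb. Within 0.5 kb of a TSS lay 1.58 of 2.88 Mb of dropped and 0.639 of 0.935 Mb of added bases. For kept bases it was 8.56 of 19.2 Mb. The part of distance in these changes was not tested. Kept bases are called in both lists by definition, and dropped or added bases in only 1 of them. Lower cover by other H3K4me1 lists therefore cannot by itself tell what the correction took out, and this holds for all bases too.

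Bases put into the list near a TSS were also rich in H3K4me3. Compared with kept bases within 1 kb, added bases were covered 9.22 ± 6.06 points more by the H3K4me3 lists (SD, n = 6, higher in 5 of 6 lists, EMD Millipore 07-473 being lower by 0.257 points). The H3K4me1 lists covered them 37.0 ± 17.0 points less (SD, n = 4, lower in 4 of 4). The difference was -46.2 points (adjusted p = 0.0190, exact permutation test) and -1.24 on the log2 ratio scale (adjusted p = 0.0190, exact permutation test). The H3K4me2 lists lay between, at -0.453 ± 5.10 points for dropped and -11.9 ± 5.30 points for added bases (SD, n = 3). Base composition moved with these classes: within 1 kb, kept bases held 4.05 CpG dinucleotides per 100 bases, dropped bases 5.26 and added bases 7.21. Bases under neither list there held 5.44, so dropped bases were richer than kept bases but not than uncovered ones. The parts of composition and of distance within the 1 kb in the result were not tested.

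**Figure D3:**
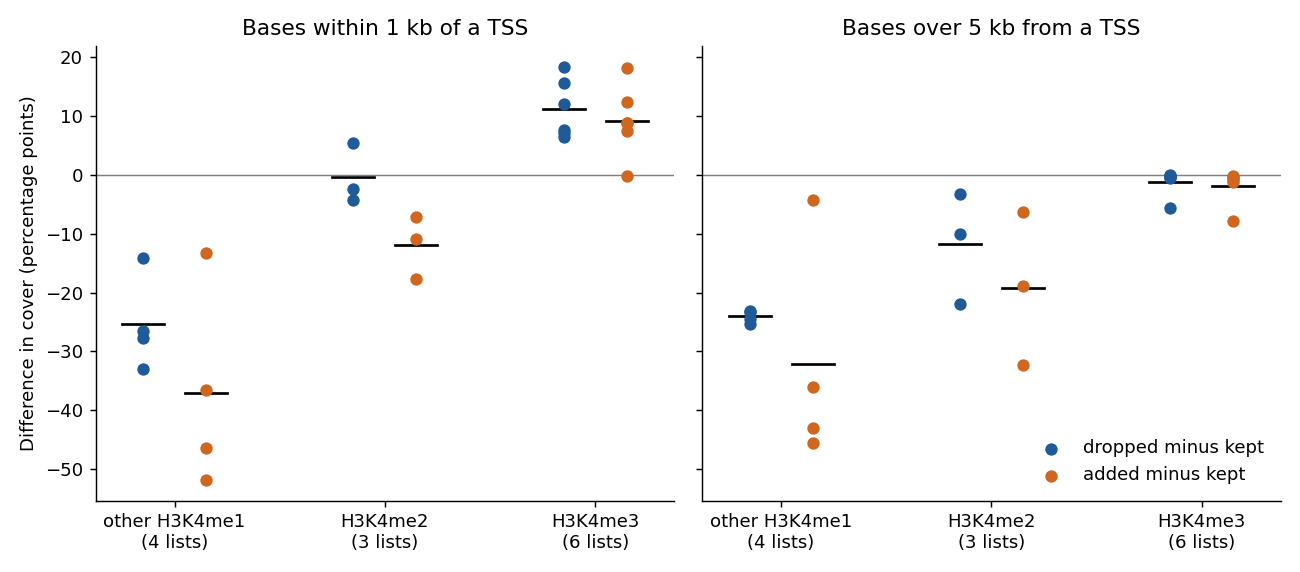
Cover of dropped (blue) and added (orange) bases minus cover of kept bases, in percentage points, for each antibody list outside the correction (points) and the mean of its target (bars), within 1 kb of a TSS (left) and over 5 kb away (right). Near a TSS the 4 H3K4me1 lists are all below 0 and the 6 H3K4me3 lists are all above 0 for dropped bases.

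Agreement with the check antibodies was higher by 1 measure and lower by another. The share of the list that another H3K4me1 list also covered was slightly higher after the correction: 89.5% of ab8895 bases and 92.0% of corrected bases lay under Active Motif 39635, 82.2% and 83.3% under Cell Signaling Technologies 5326 BF, 72.8% and 73.5% under EpiGentek A-4031-050, and 58.5% and 59.3% under Thermo Fisher 710795. The share of the other list that was covered was lower, going from 79.0% to 74.5% for Cell Signaling Technologies 5326 BF and from 61.2% to 58.6% for Active Motif 39635. For EpiGentek A-4031-050 it went from 81.1% to 76.2% and for Thermo Fisher 710795 from 88.2% to 83.1%. The Jaccard index, which weighs both, was lower with the corrected list than with ab8895 for all 4, at 0.557 against 0.571, 0.648 against 0.674, 0.597 against 0.623 and 0.529 against 0.543 in the order Active Motif, Cell Signaling Technologies, EpiGentek and Thermo Fisher. Within 1 kb of a TSS it was also lower for all 4. The corrected list is also the smaller one, at 1014 Mb against 1089 Mb, and the part of size in these values was not tested. These values share the ab8895 library and were not tested.

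At promoters, defined as 1 kb either side of the canonical TSS of 19970 protein-coding genes, 15197 held an ab8895 peak and 14247 a corrected peak. A peak in ab8895 only was found at 1109 promoters, 7.3% of those with an ab8895 peak, and a peak in the corrected list only at 159, 3.33% of those without one. These counts depended on the definition: with 0.5 of the window to be covered 1725 were lost and 414 gained, and with a window of 0.5 kb 271 were gained. The classes differed in the check antibodies: a promoter with both peaks was held by a mean of 3.81 of the 4 other H3K4me1 lists, a lost one by 2.94, a gained one by 2.64 and one with neither by 1.17. At lost promoters EpiGentek A-4031-050 still had a peak in 91.1%, Cell Signaling Technologies 5326 BF in 83.9%, Thermo Fisher 710795 in 80.4% and Active Motif 39635 in 38.3%.

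At the TSS base itself the turnover was larger. Of 9374 TSS bases under ab8895, 17.2% (1615) were no longer covered, and of 10596 outside ab8895, 8.56% (907) became covered. The TSS bases that changed lay more often in H3K4me3 promoters: 44.7% of dropped and 54.1% of added TSS bases lay in promoters held by all 6 H3K4me3 lists, against 31.5% of kept ones. Abclonal A2357 covered 74.1% of dropped, 80.4% of added and 50.8% of kept TSS bases. In turn Cell Signaling Technologies 5326 BF covered 38.9%, 25.0% and 70.5% of them. As counts of H3K4me3 lists in the promoter window rose from 0 to 6, the share of ab8895 TSS bases that were dropped went from 13.4% to 22.8%, with its lowest value, 7.51%, at 1 list. The highest share, 24.1%, was at 4 lists. The share of promoters that lost every peak was 12.8% at 0 lists, 7.07% at 1, 11.2% at 2, 9.28% at 3, 11.8% at 4, 7.20% at 5 and 3.01% at 6. Neither share changed steadily with the number of lists, and promoters in all 6 had the lowest share of lost windows.

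**Figure D4:**
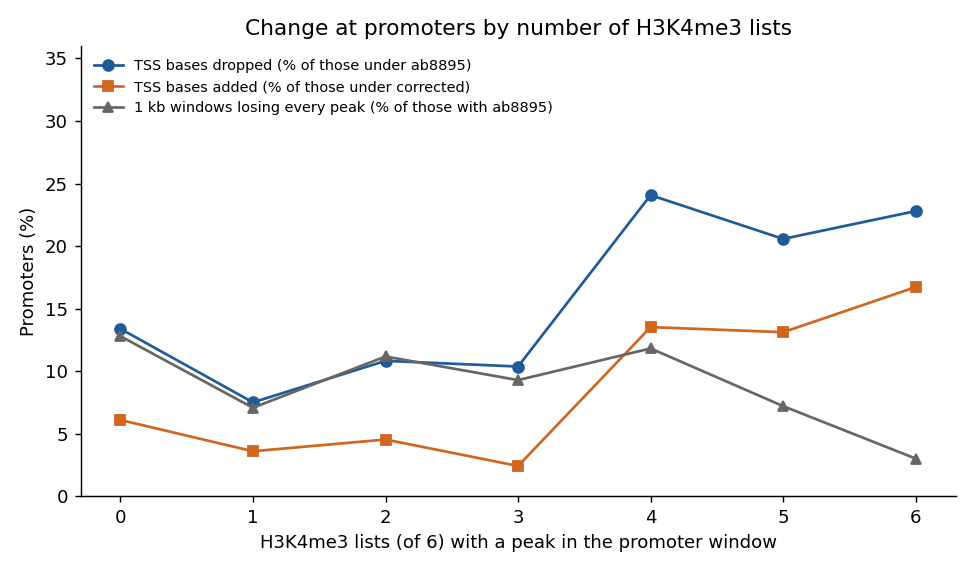
Percent of promoters that changed, by the number of H3K4me3 lists (of 6) with a peak in the promoter window: TSS bases dropped (blue circles), TSS bases added (orange squares) and windows that lost every peak (grey triangles). At 6 lists 22.8% of TSS bases were dropped and 3.01% of windows lost every peak.

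Around the TSS the net change in cover was larger at the shoulders than at the start, where losses and gains partly offset each other. At the 6335 promoters in all 6 H3K4me3 lists, 50.0% of TSS bases were under ab8895 and 46.3% under the corrected list, after 722 were dropped and 491 added. At 3 kb downstream, 94.6% and 92.5% were covered, and 3 kb upstream 91.1% and 87.3%. The largest net gap lay 0.5 kb downstream, where 76.8% of promoters were under ab8895 and 65.9% under the corrected list, 10.9 points fewer, and at 0.5 kb upstream the shares were 81.5% and 72.7%. At those 2 points Cell Signaling Technologies 5326 BF covered 60.1% and 72.8%, Thermo Fisher 710795 53.2% and 66.3%, EpiGentek A-4031-050 84.4% and 87.4%, and Active Motif 39635 85.5% and 86.7%. The TSS stood -42.8 points from the mean of the places 3 kb either side in ab8895 and -43.6 points in the corrected list, so the depth of the dip was close to the same. The other antibodies differed more from each other than the corrected list from its source: the TSS stood -14.9 points from the flanks for Active Motif 39635, -43.9 for EpiGentek A-4031-050, -59.9 for Thermo Fisher 710795 and -62.6 for Cell Signaling Technologies 5326 BF. At the 5505 promoters in 0 H3K4me3 lists the dip was shallow, at -2.43 points for ab8895 and -2.21 points for the corrected list, and the gap between the lists was at most 3.09 points.

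**Figure D5:**
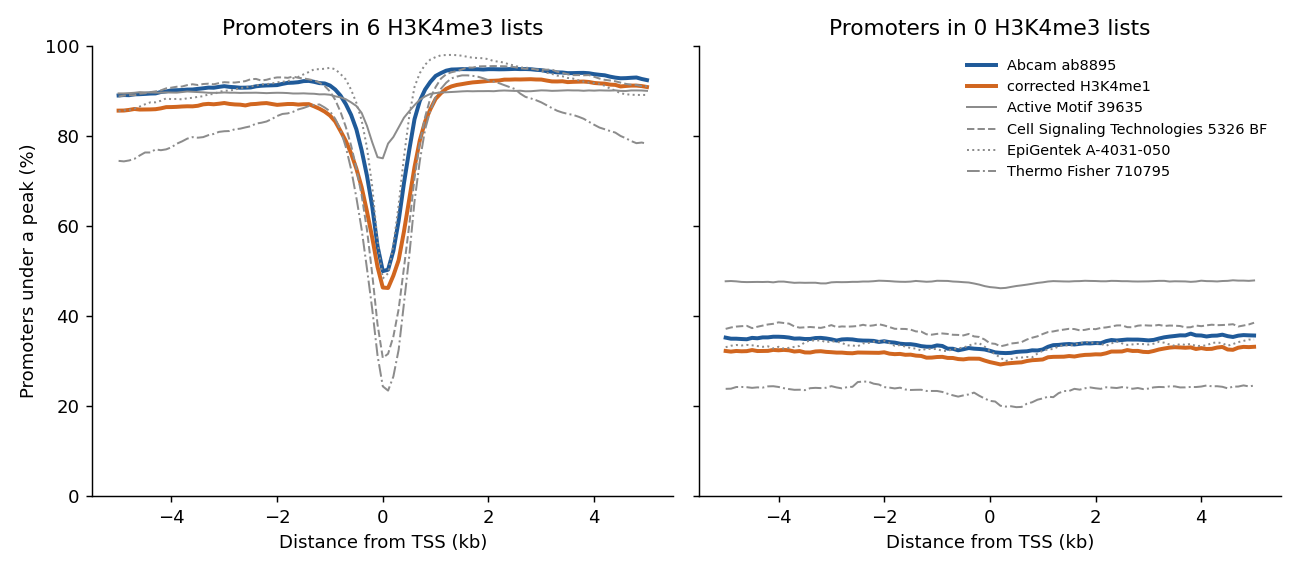
Percent of promoters under a peak by distance from the TSS in kb (upstream negative), for ab8895 (blue), the corrected list (orange) and the 4 other H3K4me1 lists (grey), at promoters in all 6 (left) and in 0 (right) of the H3K4me3 lists. On the left the corrected curve lies below that of ab8895 throughout, by 10.9 points at 0.5 kb downstream and by 1.53 points at 5 kb downstream.

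The authors' values at shared peaks moved little. Over 278707 ab8895 peaks that overlapped a corrected peak, the median log2 ratio of the corrected over the ab8895 value was 0.02 (quartiles -0.03 and 0.06). For 51840 peaks with identical coordinates in both lists it was 0.03, and 70.0% of these had the higher value in the corrected list. The direction depended on height: among identical peaks with a geometric mean of both values under 8, the median was 0.04 and 77.9% had the higher corrected value, and among those at 20 and over these were -0.04 and 11.7%. Counted per shared base in place of per peak, the median log2 ratio was -0.012. Wide peaks, which hold most bases, had lower ratios: the median was 0.03 under 500 bases and -0.02 at 10000 bases and over. Peaks that hold a TSS had a median of -0.02 over 7479 peaks, and peaks over 5 kb from any TSS 0.02 over 253297. The other antibodies stood much farther from ab8895 at the same peaks: median log2 ratios were 1.29 for Active Motif 39635, -0.14 for Cell Signaling Technologies 5326 BF, -0.28 for EpiGentek A-4031-050 and -0.39 for Thermo Fisher 710795. At TSS bases under both lists the corrected value was the lower one at 63.6% of 7759 promoters, at 72.7% of those in all 6 H3K4me3 lists (median -0.03) and at 52.4% of those in 0 lists (median -0.0041). Height differed as well: ab8895 peaks that hold a TSS had a median value of 21.4 where they overlapped all 6 lists. Where they overlapped 0 lists it was 10.7, and the part of height in this contrast was not tested.

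Single promoters had much larger changes of value. The authors give 1 value per peak, so a TSS that passes from a long to a short peak, or back, takes that peak's value. At LCN12 the value at the TSS was 25.8 in ab8895 and 9.53 in the corrected list (log2 ratio -1.44), while Active Motif 39635 gave 26.8 and Cell Signaling Technologies 5326 BF 11.1. At CREB3L2, a transcription factor of the endoplasmic reticulum stress response, it was 36.3 and 14.7 (-1.30), with 33.2 and 16.7 in the same antibodies. GJA10 (-1.05), LAT (-0.86) and COL13A1 (-0.86) had the next largest falls. Among the largest rises, the value at SLC37A2 went from 13.2 to 31.8 (log2 ratio 1.27). At CBR1 the value went from 9.33 to 20.5 (1.13), while 3 of the other antibodies gave 11.1, 11.5 and 8.02 there and Active Motif 39635 gave 31.3. TLR5, the flagellin receptor, went from 17.6 to 34.6 (0.97), with 17.0 in Cell Signaling Technologies 5326 BF, and UBE2C, a ubiquitin-conjugating enzyme of mitosis, from 11.8 to 21.7 (0.88). So at LCN12 and CREB3L2 the corrected value lay near that of Cell Signaling Technologies 5326 BF, and at CBR1 and TLR5 the uncorrected one did.

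Gene lists were described by their counts beside those of all genes, of which 7.3% of promoters with an ab8895 peak lost it. Among 30 erythroid genes 27 had an ab8895 peak and 26 a corrected one, and EPOR was the 1 loss. Its whole window of 2001 bases was under an ab8895 peak with a value of 15.6, and Active Motif 39635, Cell Signaling Technologies 5326 BF and EpiGentek A-4031-050 covered all 2001 bases with values of 28.5, 15.8 and 19.9 at the TSS. Thermo Fisher 710795 had 0 bases there, and 4 of the 6 H3K4me3 lists held the promoter. Cover grew at BCL11A, a repressor of fetal globin (1206 to 2001 bases).

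In the cell cycle list 1 of 23 ab8895 promoters lost its peak, and 21.6% of the window bases were dropped. In the housekeeping list 1 of 21 lost it and 25.5% of the bases were dropped, against 13.5% of window bases over all genes. MKI67, a marker of proliferation, was the cell cycle gene that lost its peak, with 1403 bases and a value of 32.4 in ab8895. There Cell Signaling Technologies 5326 BF covered 655 bases, EpiGentek A-4031-050 1599, Thermo Fisher 710795 597 and Active Motif 39635 0. CDC25A, a phosphatase that activates cyclin-dependent kinases, went from 1795 to 488 bases. PSMB2 went from 1785 to 312 bases, and its TSS, with a value of 18.3 in ab8895, was uncovered in the corrected list. Of the check antibodies Cell Signaling Technologies 5326 BF (408 bases) and Thermo Fisher 710795 (603) were nearer to the corrected cover there, and EpiGentek A-4031-050 (1794) and Active Motif 39635 (2001) to ab8895. Cover grew at MCM2, a subunit of the replicative helicase (1543 to 2001 bases), at CDK2 (1589 to 2001) and at GAPDH (268 to 1091).

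Among 21 writers and erasers of H3K4 methylation, 18 promoters had an ab8895 peak and 18 a corrected one, with 1 lost and 1 gained. The loss was at KDM5C, an X-linked H3K4me3 demethylase (682 bases, value 21.0). KDM1B, a demethylase of H3K4me1 and H3K4me2, went from 2001 to 1090 bases and lost the cover of its TSS, where 3 of the 4 other H3K4me1 antibodies also had no peak. Its paralogue KDM1A gained 418 bases, including the TSS, where the same 3 had none. PAXIP1, a subunit of the KMT2C and KMT2D complexes, gained 443 bases.

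Marker genes of other tissues also had H3K4me1 in both lists. Among myeloid markers 13 of 14 promoters with an ab8895 peak kept one, among lymphoid markers 18 of 18, among neural markers 10 of 11 and among liver markers 11 of 14. PRTN3, the neutrophil protease, lost 2001 bases with a value of 23.2, although Active Motif 39635 and Cell Signaling Technologies 5326 BF covered all of them, EpiGentek A-4031-050 1287 and Thermo Fisher 710795 729. The X-linked synaptic vesicle gene SYP lost 2001 bases (value 31.6) and the albumin gene ALB 1132 (value 13.4). At ALB, Cell Signaling Technologies 5326 BF and EpiGentek A-4031-050 also had 0 bases, while Thermo Fisher 710795 covered 298 and Active Motif 39635 all 2001, with a value of 24.9. RAG1, the recombinase of lymphocytes, went from 1668 to 392 bases.

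Homeobox and other developmental genes showed losses and gains side by side. Of 39 HOX promoters 33 had an ab8895 peak and 32 a corrected one, with 3 lost and 2 gained. HOXA13 (1148 bases) and HOXA9 (746 bases) lost theirs, while HOXA3 gained all 2001 bases at a value of 15.0 and HOXA5 went from 349 to 1465. At HOXA3 Active Motif 39635 covered 2001 bases, EpiGentek A-4031-050 818, Cell Signaling Technologies 5326 BF 129 and Thermo Fisher 710795 73. Of 42 developmental transcription factors 18 had a promoter peak in ab8895 and 18 in the corrected list, with 1 lost and 1 gained. PAX6, a regulator of eye and brain development, lost 2001 bases with a value of 21.2, and all 4 other antibodies covered all 2001, at values of 27.1, 22.1, 24.5 and 17.1. NKX2-5 went from 1289 to 2001 bases and BARX1 from 43 to 882. Olfactory receptor promoters lost 36 of 237 peaks (15.2%) and gained 11. OR51B2 and OR51B5 each lost 2001 bases with a value of 26.0 in ab8895.

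The promoters with the highest values that were lost were IRF2BPL (44.7), RASA3 (43.4), DNAJB5 (42.7), KLF16 (41.9) and DVL2 (41.4). At IRF2BPL, RASA3, KLF16 and DVL2 the TSS base was under neither list, so the value is that of a peak elsewhere in the window. KLF16 lost only 139 bases. At IRF2BPL 819 bases were lost, and Cell Signaling Technologies 5326 BF covered 1145 bases there, EpiGentek A-4031-050 875 and Thermo Fisher 710795 802. At DVL2, a relay of Wnt signalling, 1486 bases were lost, and the same 3 covered 2001, 2001 and 1477. DNAJB5, a chaperone gene, lost 2001 bases, and they covered 901, 2001 and 1027. Active Motif 39635 had 0 bases at 4 of the 5, with KLF16 (439 bases) the exception. Of these, IRF2BPL lies on chromosome 14 and RASA3 on chromosome 13. On chromosomes 13, 14 and X together Active Motif 39635 covered only 2.00% of bases, and 34.5% of ab8895 bases were dropped. The highest gained promoters were RAI1 (37.1), OSGEP (35.9), MST1R (34.6), PABIR3 (34.3) and NUP58 (33.9). OSGEP, PABIR3 and NUP58 lie on chromosomes 14, X and 13 in that order. PABIR3 gained the whole window of 2001 bases, OSGEP, a gene of tRNA modification, 584 and MST1R, a receptor kinase, 747. RAI1 and NUP58 gained 38 and 41 bases at the margin of the window, and at RAI1 0 of the 4 check antibodies had a peak.

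Promoter sequence was compared between the classes of TSS base, as a description with no test. RefSeq starts within 100 bases of the canonical TSS were found for 13050 of the 19970 promoters, and the 300 bases from 250 upstream to 50 downstream were searched on both strands. The median number of CpG dinucleotides was 20 where the TSS was kept, 25 where it was dropped, 29 where it was added, 25 where it was under neither list and 23 over all. GGGCGG, the GC box, stood in 57.1% of kept, 64.2% of dropped, 75.3% of added and 63.9% of uncovered promoters, and in 61.9% of all. Uncovered promoters thus held more CpG than kept ones, although a smaller share of them lay in all 6 H3K4me3 lists (27.6% against 31.5%). TATAAA stood in 10.8%, 9.12% and 6.86%, and in 9.80% of all. AGATAA, a motif of the GATA factors, stood in 8.27%, 6.38% and 4.41%, and in 7.28% of all. Each GC box holds 1 CpG, so these counts are not independent. EPOR holds 1 GC box and 1 AGATAA in its 300 bases. Sequence varied with H3K4me3 within a class too. These values too are over promoters with a RefSeq start. Dropped starts in all 6 H3K4me3 lists (522 of 722 searched) had a median of 26 CpG dinucleotides, and TATAAA in 4.41%. Those in 0 lists (151 of 238 searched) had a median of 4, and TATAAA in 29.8%. Kept starts (1681 and 944 searched) were split likewise, with medians of 25 and 4, and TATAAA in 6.72% and 20.9%.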

How the data were processed

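ICeChIP-seq peak lists of K562 were used. The submitters' processing notes list the build GRCh38 (hg38) and the tools MACS2, Bowtie2, bedtools and SAMtools. Their versions, the calling settings and the rule for high confidence: not given in the sources used here. The authors deposited positions and, for most lists, a signal value per peak in a column with no header. Its scale is therefore a reading. No peak ran past a reference chromosome end. The lists carry no read depth, which leaves precision unknown, and a base with no listed peak is not shown to be unmodified. Lists were cut into segments at every peak border, and bases were classed by ab8895 and the corrected list. TSSs are the canonical ones of protein-coding genes in GENCODE release 44. Promoter tables are RefSeq GRCh38.p14. Per antibody, cover of dropped or added bases minus cover of kept bases was compared between targets by exact two-sided permutation tests (scipy 1.17.1), with the 4 source libraries left out, Benjamini-Hochberg adjustment and a threshold of 0.05. Analyses ran in Python 3.11.15 with numpy 2.4.6, and the code was tested on simulated intervals.

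Named genes are protein-coding, outside chromosome 8: from each of 11 gene lists the 2 promoters that lost and the 2 that gained the most bases, the 5 highest promoters of each list alone, and the 5 largest falls and rises of the value at the TSS. The text names only some of the genes this rule gives. Some items are not reported here. The first gained promoter, RAI1, has 0 bases of its upstream stretch under either list and is not printed. Members, lists and tests were chosen with earlier results of these data known, and the tests within 1 kb of a TSS were added after seeing the data. The alternatives were other windows, TSS definitions, chromosome sets, value and length minimums, a ratio scale and leaving out antibodies.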

Additional observations from a re-analysis of the deposited data

Results flagged for a closer look

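EMD Millipore 07-473, an H3K4me3 antibody, stood apart from the other 5 H3K4me3 lists outside the correction by Dixon's criterion. Its cover changed by -5.73 points from kept to dropped bases and by -8.71 points from kept to added bases over the genome. Over 5 kb from a TSS these changes were -5.60 and -7.77 points. It also covers more of the genome than the other 5, at 165 Mb against 18.7 to 42.9 Mb. Chance alone marks about 1 in 20 groups, and 12 were examined.

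The change of cover differed between H3K4me1 and H3K4me3 antibodies by a test of the difference itself, an exact permutation test, in 6 comparisons. Over all bases the difference was -23.4 points for dropped and -30.8 points for added bases, and over 5 kb from a TSS -22.9 and -30.3 points. Within 1 kb of a TSS it was -36.5 and -46.2 points, and these were the 2 differences of the 6 that held on the ratio scale.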

How the results depend on the processing

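No paired analysis was possible because each sample is a different antibody and the numbers of samples were given in accession order. Peak lists give no depth, the corrected list stands alone, and every comparison with it shares the ab8895 library. The share of ab8895 bases dropped was 10.2% when chromosomes 13, 14 and X were left out, 11.0% without any peak over 1 Mb, 10.9% with peaks below their list's median value left out and 10.8% with segments of at least 150 bases, and the share added 4.24%, 4.29%, 4.36% and 3.96%. Within 1 kb of a TSS lay 2.32% of dropped and 2.08% of added bases with the TSS at the gene's 5′ end, 2.37% and 2.14% without the 3 chromosomes, and 2.36% and 2.14% with the longer segments. Promoters lost were 1725 when 0.5 of the window had to be covered. Promoters gained were 414 then, and 271 with a window of 0.5 kb. The median log2 ratio of values turned to -0.012 per shared base.

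The H3K4me1 minus H3K4me3 difference kept its direction but missed the threshold with AR16 libraries only, at -23.0 (dropped) and -30.0 (added) over all bases, -22.4 and -29.6 over 5 kb away and -38.4 and -46.8 within 1 kb. With 8 cycles only it was -22.8, -30.0, -22.4, -29.7, -33.6 and -43.2. These settings test fewer antibodies. As a log2 ratio it was -0.40 and -0.24 over all bases, and 0.082 and 1.495 over 5 kb away. Leaving out 1 antibody gave -24.4 to -23.0 (dropped) and -40.2 to -26.1 (added) over all bases, and -23.8 to -22.5 and -39.6 to -25.9 over 5 kb away. Against H3K4me2 the log2 ratio differences changed direction, to 0.041 and 0.55 over all bases and 0.16 and 1.07 over 5 kb away, and the cause was not tested. With the source antibodies the dropped differences from H3K4me2 passed, at -10.1 over all bases, -9.69 over 5 kb away and -23.1 within 1 kb. They were smaller in size than without these antibodies, and a larger number of antibodies allows a smaller p. The classes of bases were made from the source libraries, ab7766 among them, so these passes are not independent of the correction and nothing is drawn from them.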
